A study of Mus musculus with 10 samples.

Results

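Immediate early genes are transcribed within minutes of a signal, with no need for newly made protein. Here 10 such genes, chosen by name, were read from the count table of 55421 genes: Egr1, Egr2, Egr3, Fos, Fosb, Jun, Junb, Nr4a1, Ier2 and Dusp1. All 10 of 10 were found and all 10 passed the filter on low counts. The samples were germinal center B cells from the spleen of C57BL/6 mice of 8 to 10 weeks, taken on day 10 after immunization. Cells were enriched with magnetic beads that bind PNA, a lectin that marks these cells. Mice labelled Pbrm1+/+ (WT) gave 3 libraries of a fraction labelled CB and 3 of a fraction labelled CC, and mice labelled Pbrm1-/- (HOMO) gave 2 and 2. The labels give no Cre driver and no design of the Pbrm1 allele, and they do not say whether replicates came from separate animals, so a p-value here reflects only how far these libraries spread, possibly for technical reasons. Column names hold the unexplained letters AID.

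As background, a signal through the antigen receptor, CD40 or a stress pathway activates MAP kinases. These phosphorylate factors that already sit on the promoters of immediate early genes, among them serum response factor with its ETS partners at the CArG box and CREB at the cyclic AMP response element. Egr1, Egr2 and Egr3 are zinc finger transcription factors, Nr4a1 (Nur77) is an orphan nuclear receptor used as a readout of antigen receptor signalling, and Fos, Fosb, Jun and Junb are subunits of the transcription factor AP-1. Ier2 is a small nuclear protein, and Dusp1 is a phosphatase that switches MAP kinases off again. In the germinal center, antigen and T cell help are met in the light zone, where centrocytes reside. The same genes can also be induced while a tissue is dissociated and cells are handled.

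The promoters are shown because sites near the start are one route by which such signals reach these genes. RefSeq (GRCm38.p6) windows were found for 7 of the 10 members, and the 250 bases before each start were searched on both strands. Egr1, Egr3 and Ier2 had no window and were not searched. Sites farther from a start were not searched either, so a motif not found here may still lie there. The motifs were the CArG box, TGACG (the core of the cyclic AMP response element), its full form TGACGTCA, the AP-1 letters TGACTCA, the related TGACATCA, and the EGR letters GCGTGGGCG and GCGGGGGCG. TGACG lies within TGACGTCA. Below are 2 genes of each of the expression patterns described later, 5′ to 3′ on the strand of the gene, with matched letters in capitals and without bases that lie in exons. They are chr12:85473640-85473889 (plus strand), chr17:26508520-26508722 (minus strand), chr10:67537619-67537868 (plus strand) and chr15:101266596-101266845 (plus strand).
Fos: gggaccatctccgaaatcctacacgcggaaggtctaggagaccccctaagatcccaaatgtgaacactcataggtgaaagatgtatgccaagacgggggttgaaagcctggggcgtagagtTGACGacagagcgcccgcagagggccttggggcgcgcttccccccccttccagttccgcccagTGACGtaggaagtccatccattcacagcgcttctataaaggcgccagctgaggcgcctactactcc
Dusp1: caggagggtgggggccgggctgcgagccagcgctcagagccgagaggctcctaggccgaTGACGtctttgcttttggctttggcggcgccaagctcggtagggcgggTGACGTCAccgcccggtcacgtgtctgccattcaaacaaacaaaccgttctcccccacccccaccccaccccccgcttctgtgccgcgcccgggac
Egr2: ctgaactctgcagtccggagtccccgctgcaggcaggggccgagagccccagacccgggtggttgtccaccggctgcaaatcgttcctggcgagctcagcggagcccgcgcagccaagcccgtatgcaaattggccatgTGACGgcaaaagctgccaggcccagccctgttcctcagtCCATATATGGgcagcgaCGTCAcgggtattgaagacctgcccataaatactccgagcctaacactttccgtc
Nr4a1: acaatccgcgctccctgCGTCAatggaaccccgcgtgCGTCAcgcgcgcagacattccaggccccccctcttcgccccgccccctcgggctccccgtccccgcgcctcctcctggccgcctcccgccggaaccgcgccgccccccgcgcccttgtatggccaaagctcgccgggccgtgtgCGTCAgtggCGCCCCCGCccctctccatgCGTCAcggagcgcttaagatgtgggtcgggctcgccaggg
The Fos stretch held TGACG at 2 places, and the Dusp1 stretch held TGACGTCA once and TGACG at a further place. The Egr2 stretch held the CArG box, TGACG and its reverse complement. In Nr4a1 the reverse complement of TGACG stood at 4 places, with 1 match to GCGGGGGCG. Of the other windows, those of Junb and Fosb held TGACG, Fosb also GCGGGGGCG, and that of Jun held TGACATCA. Egr2 has further windows that are not printed. That at chr10:67537316-67537565 held another CArG box, CCTTTTTTGG, and that at chr10:67535249-67535474 held none of the motifs. The rest of them overlap the printed stretch. Over all 32536 promoter windows of this length, 17.9% held TGACG, 1.56% TGACGTCA, 1.48% the CArG box, 2.6% GCGGGGGCG and 2.84% TGACATCA. TGACTCA stood in 4.45% and GCGTGGGCG in 0.541% of all windows, and in none of the windows of the members.

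Each library held between 9954006 and 67625110 counts, and the lowest count of a member in any library was 128 reads. Levels are in CPM (a gene's counts scaled to a common library total) after TMM scaling, a correction for the makeup of each library. WT libraries 1, 2 and 3 carry the numbers of their labels. HOMO libraries carry the numbers 2 and 3 of the count table, where the labels have 1 and 2, so they were assigned to a group only. Pbrm1 itself measured 319, 309 and 312 CPM in WT CB, 178 and 164 CPM in HOMO CB, 239, 239 and 250 CPM in WT CC and 152 and 150 CPM in HOMO CC, so its reads were lower but present in HOMO. Among markers of other cells, the summed level of 12 macrophage genes was 860, 208 and 52.3 CPM in WT CC libraries 1, 2 and 3, 31 to 34.8 CPM in HOMO CC and 11.5 to 25.7 CPM in CB. Germinal center markers were present in every library, with Bcl6 at 357 CPM or more. The T cell receptor complex genes Cd3d, Cd3e and Cd3g were at 1.77 CPM or less. In these bulk samples, fewer cells of a type and less RNA per cell cannot be told apart.

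The members fell into 2 patterns, described here after their values were seen. Fos, Fosb, Jun and Dusp1 did not move in 1 direction from CB to CC over the WT numbers. In WT numbers 1 and 2, Jun (log2 -0.38 and -0.29), Dusp1 (-0.60 and -0.40) and Fos (-0.19 and -0.16) were lower in CC. In number 3 they were higher in CC (0.14, 0.13 and 0.24). Fos, Fosb, Jun and Dusp1 were far higher in WT library 3 of both fractions than in any other library. Egr1, Egr2, Egr3, Nr4a1, Ier2 and Junb were higher in CC than in CB of the same number in every case. Over the 10 libraries, Pearson's r of log2 CPM lay between 0.959 and 0.987 for the 6 pairs among Fos, Fosb, Jun and Dusp1, between 0.754 and 0.978 for the 15 pairs among the other members, and between -0.188 and 0.539 for the 24 pairs across. After the group means were subtracted, the ranges were 0.99 to 0.999, -0.134 to 0.965 and -0.356 to 0.93. Within groups Junb (r = 0.925), Nr4a1 (0.917) and Ier2 (0.856) thus went with Fos, and Egr1 (-0.338) did not. These are descriptions, and the points of a pair share libraries and depth. The largest deviations of Fos from its group means were in WT library 3, at 105 and 124 CPM against 16.1 to 21.2 CPM in the other WT libraries. The values within groups thus lean on that library number.

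**Figure D1:**
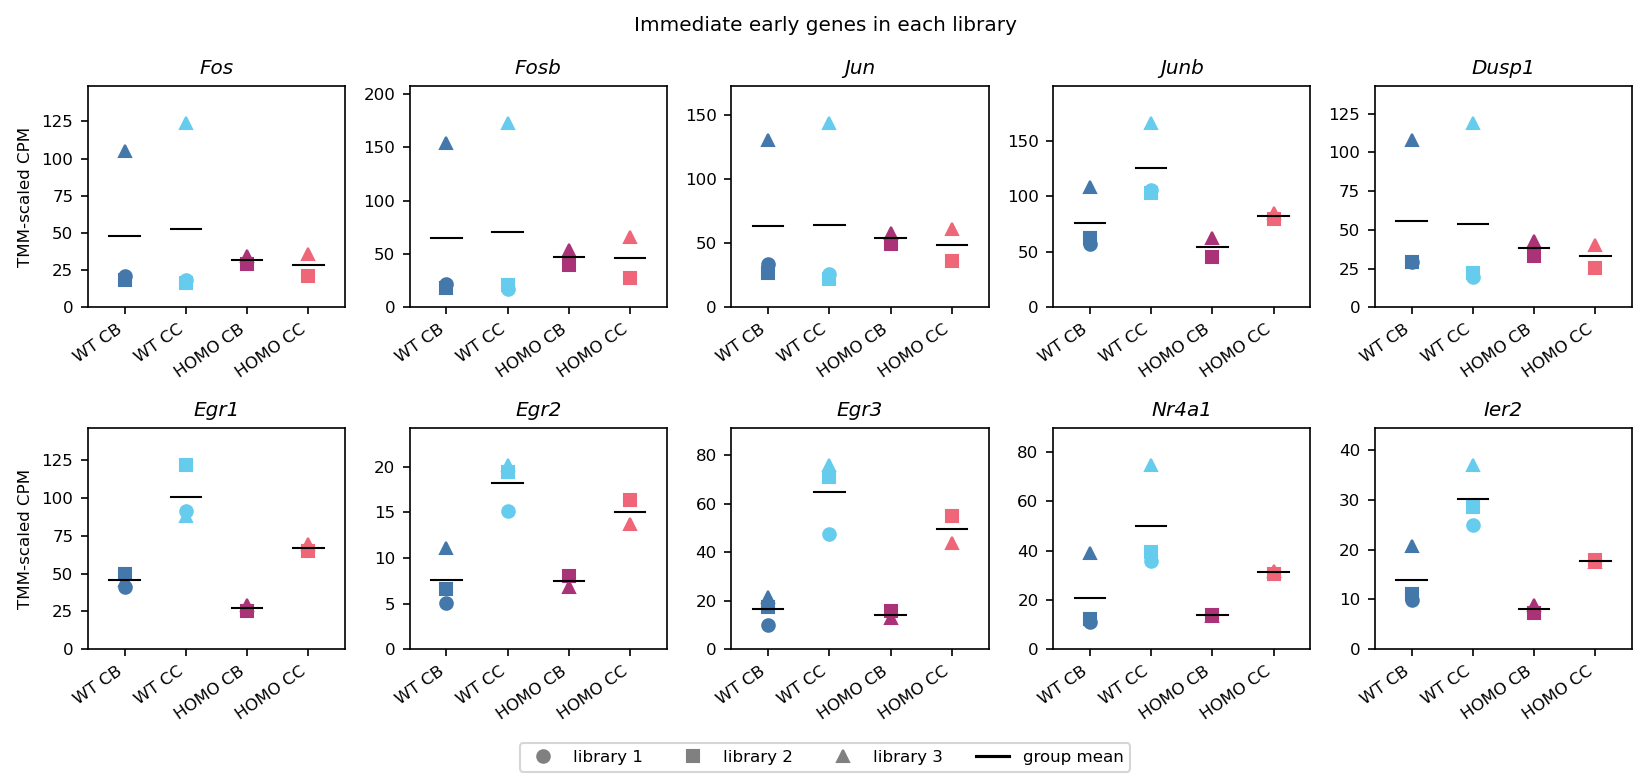
TMM-scaled CPM of each immediate early gene (vertical axes, each starting at 0) in the 4 groups (horizontal axis); points are libraries, shapes give their number and bars are group means. In Fos, Fosb, Jun and Dusp1 the triangles of WT library 3 stand above all other libraries, while in Egr1, Egr2, Egr3, Nr4a1 and Ier2 the CC points stand above the CB points of the same number.

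Fos (ENSMUSG00000021250.13, mm10 chromosome 12, 85473890 to 85477273) encodes the AP-1 subunit that pairs with JUN proteins. It measured 21.2, 18 and 105 CPM in libraries 1, 2 and 3 of WT CB, and 18.5, 16.1 and 124 CPM in those of WT CC. The HOMO libraries 2 and 3 were at 29.4 and 34.2 CPM in CB and at 20.8 and 36 CPM in CC. WT library 3 thus stood 5.39-fold above the mean of WT libraries 1 and 2 in CB and 7.19-fold in CC, and the HOMO libraries lay between them.

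Fosb (ENSMUSG00000003545.3, chromosome 7, 19302696 to 19310051), a close relative of Fos, showed the widest range. Its WT CB libraries were at 22.1, 17.9 and 154 CPM and its WT CC libraries at 17.3, 20.6 and 173 CPM, ratios of 7.69 and 9.13 for library 3. In HOMO it was at 39.5 and 54 CPM in CB and at 27.2 and 65.7 CPM in CC.

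Jun (ENSMUSG00000052684.4, chromosome 4, 95049034 to 95052222) encodes the partner of FOS in AP-1 and has a single exon. It measured 33.5, 26.9 and 131 CPM across WT CB, against 25.7, 22.1 and 144 CPM across WT CC. HOMO CB was at 49.4 and 58.1 CPM and HOMO CC at 36.3 and 60.9 CPM. The antisense gene Junos overlaps it and reached 2.22 CPM before TMM scaling at most.

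Dusp1 (ENSMUSG00000024190.7, chromosome 17, 26505590 to 26562128), the phosphatase of the feedback loop, was likewise highest in WT library 3. WT CB libraries measured 29.5, 29.3 and 108 CPM and WT CC libraries 19.5, 22.1 and 119 CPM. HOMO CB measured 32.9 and 43 CPM and HOMO CC 25.5 and 40.2 CPM. Its counted region overlaps Ergic1 on the other strand, which was at up to 51.1 CPM before TMM scaling. Reads of such partners cannot be told apart where strand is ignored, and the sources used here do not give the strand setting of the counting. In both fractions, WT library 3 was at least 2-fold above each of WT libraries 1 and 2 for these 4 of the 10 members and for 3.79% of all genes tested. At 3-fold the count was again 4 of 10, against 1.9% of all genes. The HOMO libraries lay above WT libraries 1 and 2 and below library 3 in both fractions for the same 4 members and for 1.83% of all genes.

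**Figure D2:**
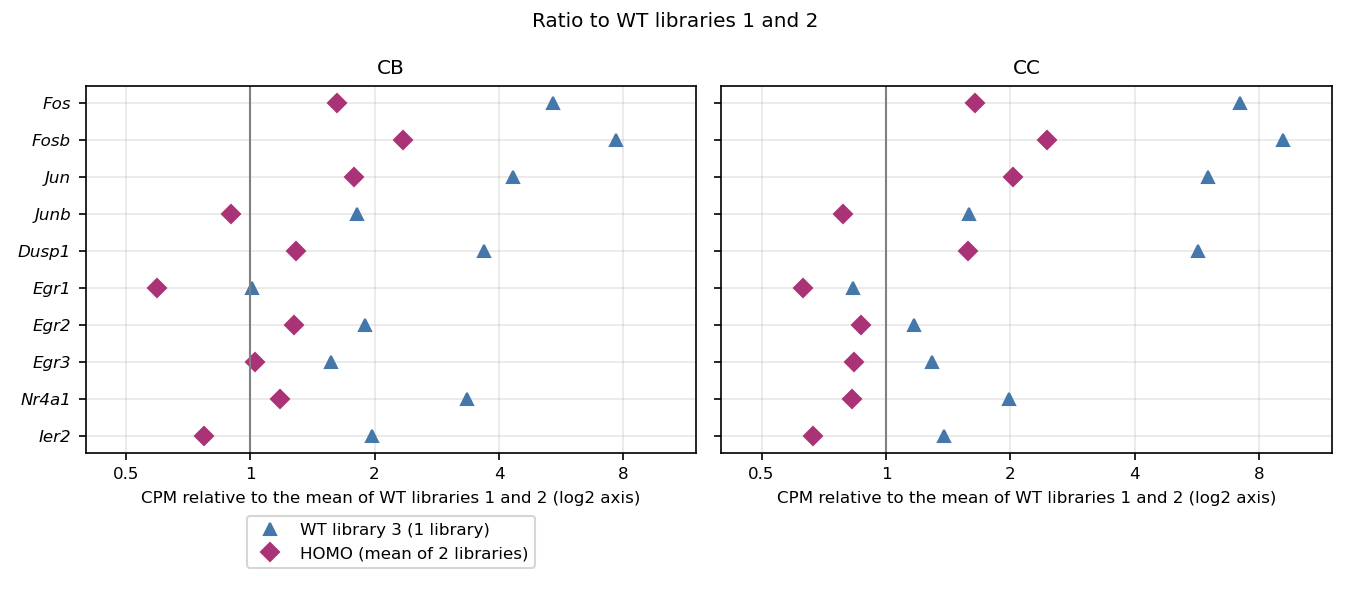
Level of each gene in WT library 3 (triangles, 1 library) and in HOMO (diamonds, mean of 2 libraries), divided by the mean of WT libraries 1 and 2, on a log2 axis in CB (left) and CC (right). Fos, Fosb, Jun and Dusp1 reach 3.68 to 9.13 in WT library 3 and 1.29 to 2.45 in HOMO. In WT library 3 Nr4a1 lies at 3.34 (CB) and 1.99 (CC), and Egr2, Egr3, Junb and Ier2 lie at 1.17 to 1.97. Egr1 lies at 1.01 and 0.83 there.

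Egr1 (ENSMUSG00000038418.7, chromosome 18, 34859823 to 34864984) did not follow library 3. It measured 41.1, 49.6 and 45.8 CPM across WT CB, against 91.4, 122 and 88.4 CPM across WT CC. The HOMO libraries were at 25 and 29 CPM in CB and at 65.1 and 69.5 CPM in CC. All CC libraries were above all CB libraries of their genotype, and all HOMO libraries were below all WT libraries of their fraction.

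Egr2 (ENSMUSG00000037868.15, chromosome 10, 67535475 to 67542188) and Egr3 (ENSMUSG00000033730.4, chromosome 14, 70077203 to 70082614) are the other zinc finger factors. Egr2 measured 5.04, 6.6 and 11.1 CPM across WT CB, against 15.1, 19.4 and 20.2 CPM across WT CC, with 8.02 and 6.85 CPM in HOMO CB and 16.4 and 13.7 CPM in HOMO CC. Egr3 measured 10.1, 17.5 and 21.6 CPM across WT CB, against 47.3, 70.8 and 76 CPM across WT CC, with 15.6 and 12.7 CPM in HOMO CB and 55.1 and 43.7 CPM in HOMO CC. For both genes the fractions did not overlap in either genotype, while HOMO and WT overlapped in each fraction.

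Nr4a1 (ENSMUSG00000023034.7, chromosome 15, 101254269 to 101274795) shared both patterns. It measured 11.1, 12.2 and 38.9 CPM across WT CB, against 35.6, 39.5 and 74.7 CPM across WT CC, with 14 and 13.6 CPM in HOMO CB and 30.6 and 31.6 CPM in HOMO CC. Library 3 was the highest WT library in both fractions, and within each WT number CC was above CB.

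Ier2 (ENSMUSG00000053560.5, chromosome 8, 84661331 to 84662854) measured 9.97, 11 and 20.7 CPM across WT CB, against 25, 28.5 and 37 CPM across WT CC. In HOMO it was at 7.32 and 8.95 CPM in CB and at 17.9 and 17.6 CPM in CC, below every WT library of the same fraction. Junb (ENSMUSG00000052837.6, chromosome 8, 84974484 to 84978718), an AP-1 subunit, measured 57, 62.5 and 108 CPM across WT CB, against 106, 103 and 166 CPM across WT CC. It measured 45.5 and 62.1 CPM in HOMO CB and 79 and 85.2 CPM in HOMO CC, so the fractions overlapped in WT through library 3 of CB. Junb overlaps Prdx2 on the other strand, which was at up to 67.6 CPM before TMM scaling.

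Per kilobase of gene length, Junb had the highest group mean in every group, at 33 CPM per kb in WT CB, 54.3 in WT CC, 23.4 in HOMO CB and 35.7 in HOMO CC. Egr2 had the lowest, at 2.23, 5.36, 2.19 and 4.42 CPM per kb. In WT CB the order between them was Fos, Jun, Dusp1, Fosb, Egr1, Ier2, Nr4a1 and Egr3, and each member overlapped its neighbour in the order. In WT CC, Egr1 stood at 22.4 CPM per kb, next to Fos at 22.5, and neighbours again overlapped throughout.

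CC was compared with CB within WT, which sets the 2 fractions side by side. Egr1, Egr2, Egr3 and Ier2 rose in CC: 4 of 10 members passed upwards by edgeR, against 11.6% of all genes. Egr3 averaged 16.4 ± 5.83 CPM in CB and 64.7 ± 15.3 CPM in CC (SD, n = 3 and 3), a log2 change of 1.97 with an SE of 0.27 (edgeR adjusted p = 0.000863). Egr1 averaged 45.5 ± 4.27 CPM in CB and 100 ± 18.3 CPM in CC, a log2 change of 1.14 with an SE of 0.13 (edgeR adjusted p = 0.000246). For Egr2 the log2 change was 1.25 (SE 0.25, edgeR adjusted p = 0.0057), for Ier2 1.10 (SE 0.26, edgeR adjusted p = 0.0113). All CC libraries stood above all CB libraries for these 4 genes, as for 16.5% of all genes. Nr4a1 (log2 1.24, SE 0.49, edgeR adjusted p = 0.108) and Junb (0.72, SE 0.27, 0.0827) did not pass. Genes of some lists for other cells rose in the same comparison: 9 of 12 macrophage, 3 of 6 dendritic cell, 3 of 7 resting follicular B cell and 4 of 5 stromal, endothelial and erythroid genes. Of the T cell list 1 of 10 rose, near the 11.6% of all genes. Of the plasma cell list 0 of 5 rose and 3 fell, and of the neutrophil list 0 of 7 rose. Of the stromal list, Cr2 was at 332 to 880 CPM and Pecam1 at 55.4 to 94.4 CPM over all libraries. Hbb-bs reached 28.3 CPM, Col1a1 0.421 CPM and Cxcl13 0.123 CPM at most. Of the T cell list, Lck was at 63.4 to 224 CPM over all libraries. The counts thus do not measure how many such cells were present. The summed level of the follicular list was 207 to 230 CPM in WT CB and 444 to 496 CPM in WT CC, and that of the dendritic cell list 33.1 to 39.8 and 40.2 to 53.4 CPM. Within the follicular list, Fcer2a alone measured 103, 108 and 75 CPM across WT CB, against 342, 345 and 242 CPM across WT CC. Ighd measured 79.2, 90.2 and 92.4 CPM across WT CB, against 53.7, 60.7 and 109 CPM across WT CC, so it fell in libraries 1 and 2. The rise of the sum thus came largely from Fcer2a. In HOMO the follicular sum was 197 to 209 CPM in CB and 411 to 456 CPM in CC. The part of other cells in the rise of the members was not tested.

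The log2 change of Fos was 0.11 (SE 1.0), of Fosb 0.10 (SE 1.2), of Jun -0.02 (SE 0.90) and of Dusp1 -0.08 (SE 0.85) in WT, with edgeR adjusted p of 0.956 or more. These SEs are wide, so a change of 2-fold in either direction lies within 2 SEs of each estimate. Within the WT numbers 1, 2 and 3, the log2 ratio of CC to CB was -0.19, -0.16 and 0.24 for Fos and -0.60, -0.40 and 0.13 for Dusp1. It was 1.68, 1.69 and 0.94 for Nr4a1, 0.89, 0.72 and 0.62 for Junb and 1.15, 1.29 and 0.95 for Egr1.

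Same-numbered WT libraries of the 2 fractions deviated together from their group means, with r of 0.301, 0.426 and 0.436 for numbers 1, 2 and 3. CB 1 with CC 2 had r = 0.278, so numbers 1 and 2 were less clearly paired than number 3 was set apart. The WT number was also fitted as a replicate block. With the block, 6 of 10 members passed upwards in WT CC, against 16.9% of all genes. The added genes were Nr4a1 (log2 1.42, edgeR adjusted p = 3.37e-05) and Junb (0.74, edgeR adjusted p = 0.000489). Fos, Fosb, Jun and Dusp1 had log2 changes of -0.02, 0.02, -0.16 and -0.27 with the block, and did not pass (edgeR adjusted p of at least 0.361). The call of Egr2 was lost without WT number 2 (1.11, edgeR adjusted p = 0.0727), and that of Ier2 without WT number 1 (1.04, 0.0604), without WT number 2 (1.00, 0.0903) and with an offset for GC content (0.88, 0.1).

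In HOMO, Egr1 and Egr3 rose in CC, 2 of 10 members against 2.46% of all genes passing upwards. Egr1 averaged 27 ± 2.86 CPM in CB and 67.3 ± 3.11 CPM in CC (SD, n = 2 and 2), a log2 change of 1.31 with an SE of 0.17 (edgeR adjusted p = 0.00119). Egr3 averaged 14.1 ± 2.02 and 49.4 ± 8.04 CPM, a log2 change of 1.81 with an SE of 0.33 (edgeR adjusted p = 0.0111). Ier2 (1.12, SE 0.32, edgeR adjusted p = 0.0723), Egr2 (1.02, SE 0.31, 0.0885), Nr4a1 (1.17, SE 0.62, 0.367) and Junb (0.61, SE 0.33, 0.373) did not pass. The CC libraries of these 6 genes were nonetheless all above the CB libraries, which held for 28.8% of all genes. The log2 change was -0.18 for Fos, -0.02 for Fosb, -0.15 for Jun and -0.22 for Dusp1, with SEs between 1.1 and 1.5. Without both libraries of WT number 3, where the SEs of the members were 0.11 to 0.45, 6 of 10 members passed upwards in HOMO CC, against 10% of all genes, and 6 of 10 in WT CC, against 22.2%. The Egr3 call was lost without HOMO CB library 2 (edgeR adjusted p = 0.0849) or 3 (0.163) and without HOMO CC library 2 (0.11).

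**Figure D3:**
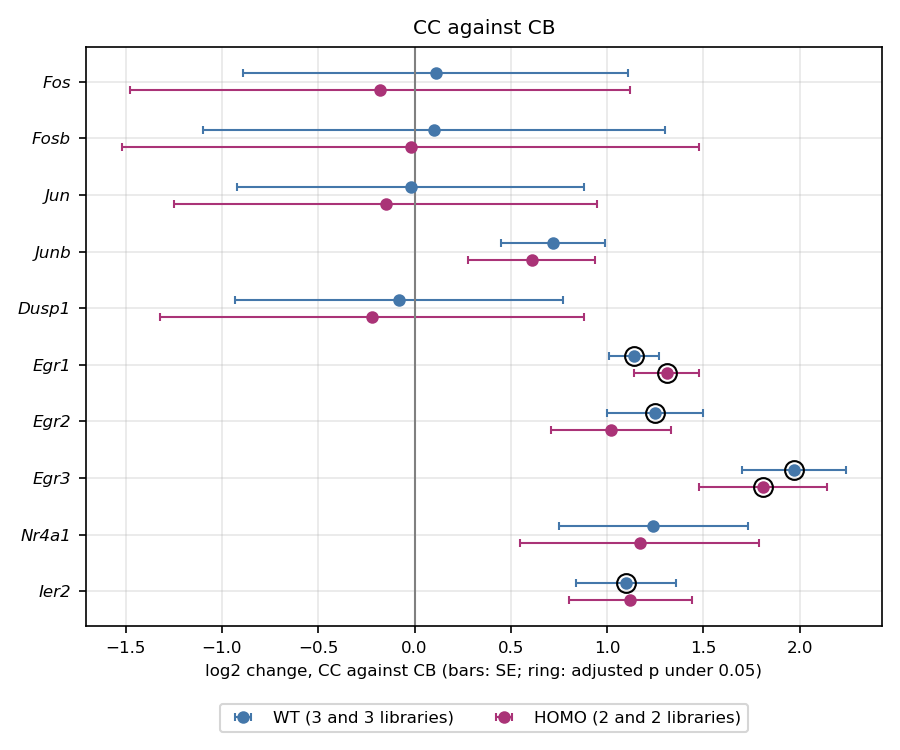
Log2 change of CC against CB (horizontal axis) in WT (blue) and HOMO (purple) for each gene; bars are SEs of the edgeR fit and rings mark adjusted p under 0.05. Egr1 and Egr3 are ringed in both genotypes and Egr2 and Ier2 in WT, while Fos, Fosb, Jun and Dusp1 lie near 0 with wide bars.

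The difference between the 2 genotypes in the CC against CB change was tested as an interaction. It passed for 0 of 10 members and 0% of all genes by edgeR, and also for 0 members at an unadjusted p under 0.05 and 0 members by DESeq2. The log2 differences (HOMO minus WT) lay between -0.28 for Fos and 0.17 for Egr1, with SEs between 0.21 for Egr1 and 1.9 for Fosb. Without WT number 3, Nr4a1 passed (log2 difference -0.51, edgeR adjusted p = 0.0487), 1 of 10 members against 3.94% of all genes passing downwards, with a smaller rise in HOMO (1.17) than in WT (1.69).

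HOMO was then compared with WT within each fraction. By edgeR 0 of 10 members passed in CB, against 0.0241% of all genes, and 0 of 10 in CC, against 0%. At an unadjusted p under 0.05 it was 2 members in each fraction, Egr1 and Ier2, against 12.5% and 18.9% of all genes, and by DESeq2 1 of 9 with an adjusted p passed downwards in each, Egr1, against 0.987% and 3.18% of all genes. All 10 log2 changes were negative in both fractions, with a median of -0.53 in CB and -0.60 in CC against -0.04 and -0.03 over all genes tested. Without WT number 3, 7 of 10 were positive in CB, with a median of 0.32, and 4 of 10 in CC, with a median of -0.19.

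Egr1 had the smallest p in both fractions. Its log2 change was -0.75 (SE 0.15, edgeR adjusted p = 0.167) in CB and -0.58 (SE 0.15, edgeR adjusted p = 0.133) in CC. Egr1 passed in both fractions by DESeq2 (adjusted p = 0.00147 and 0.018) and by edgeR without WT number 3 (-0.71, adjusted p = 0.005, and -0.64, 0.00853), where 15.1% and 14.8% of all genes passed downwards. Over all alternatives its adjusted p lay between 2.8e-05 and 1 (CB) and between 0.00326 and 0.55 (CC). Ier2 had log2 changes of -0.78 (SE 0.29, edgeR adjusted p = 0.342) in CB and -0.76 (SE 0.30, edgeR adjusted p = 0.211) in CC, and passed in CC without WT number 3 (-0.56, edgeR adjusted p = 0.00841).

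Libraries of HOMO were all below those of WT for Egr1 and Ier2 in CB, 2 of 10 members against 16.4% of all genes. In CC this held for Egr1, Ier2, Junb and Nr4a1, 4 of 10 against 17.4%, and in both fractions for Egr1 and Ier2, 2 of 10 against 7.91%. The deviation of a library from the gene means followed the GC content of the genes, with a Spearman rho across genes of -0.624 and -0.598 in HOMO CB and -0.177 and -0.216 in HOMO CC. In WT it was 0.145, 0.244 and -0.455 in CB and 0.419, 0.549 and 0.148 in CC. With an offset for GC content the log2 change of Egr1 was -0.58 in CB and -0.41 in CC. In that fit 0 of 10 members passed in either fraction, against 0.0181% and 0.0241% of all genes, with edgeR adjusted p of at least 0.26 and 0.225. The adjusted levels of Egr1 were 27.8 and 32.2 CPM in HOMO CB against 38.7, 45.1 and 50.6 CPM in WT CB. In CC they were 67.1 and 72 CPM in HOMO against 82.9, 107 and 87.8 CPM in WT. These did not overlap, but the share of all genes without overlap after the offset was not computed. The adjusted levels of Ier2 overlapped in CB, at 8.87 and 10.6 CPM in HOMO against 9.35, 9.87 and 23.1 CPM in WT. The part of the macrophage sums given above in these differences was not tested.

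For Fos, Fosb, Jun and Dusp1 the direction of the difference between genotypes turned in both fractions without WT number 3. In CB it also turned for Egr2 (to 0.37), Egr3 (to 0.04) and Nr4a1 (to 0.27), and none of these 3 passed. With all libraries the log2 change in CB was -0.61 (SE 1.1), -0.48 (SE 1.3), -0.25 (SE 1.0) and -0.56 (SE 0.95), and in CC it was -0.89, -0.60, -0.39 and -0.69, with edgeR adjusted p of at least 0.737. Without both libraries of WT number 3 it was 0.73 for Fos (edgeR adjusted p = 0.0328), 0.87 for Jun (0.0397), 1.26 for Fosb (0.113) and 0.41 for Dusp1 (0.155) in CB. In CC it was then 0.72 for Fos (edgeR adjusted p = 0.0471), 1.03 for Jun (0.0281), 0.67 for Dusp1 (0.0419) and 1.29 for Fosb (0.121). Members passing upwards numbered 2 of 10 in CB and 3 of 10 in CC, against 15.3% and 16.5% of all genes, in a fit that leaves 2 libraries in every group. With no low-count filter, on the other hand, 7 of 10 members passed downwards in each fraction, against 0.84% and 2.36% of all genes, Fos, Fosb and Dusp1 among them. In that fit the SEs of the members were 0.13 to 0.22 in CB and 0.13 to 0.23 in CC. For Fos in CB the log2 change was -0.62 with an SE of 0.14, against -0.61 with an SE of 1.1 with the filter. These calls thus rest on a smaller estimate of the spread, not on larger changes.

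**Figure D4:**
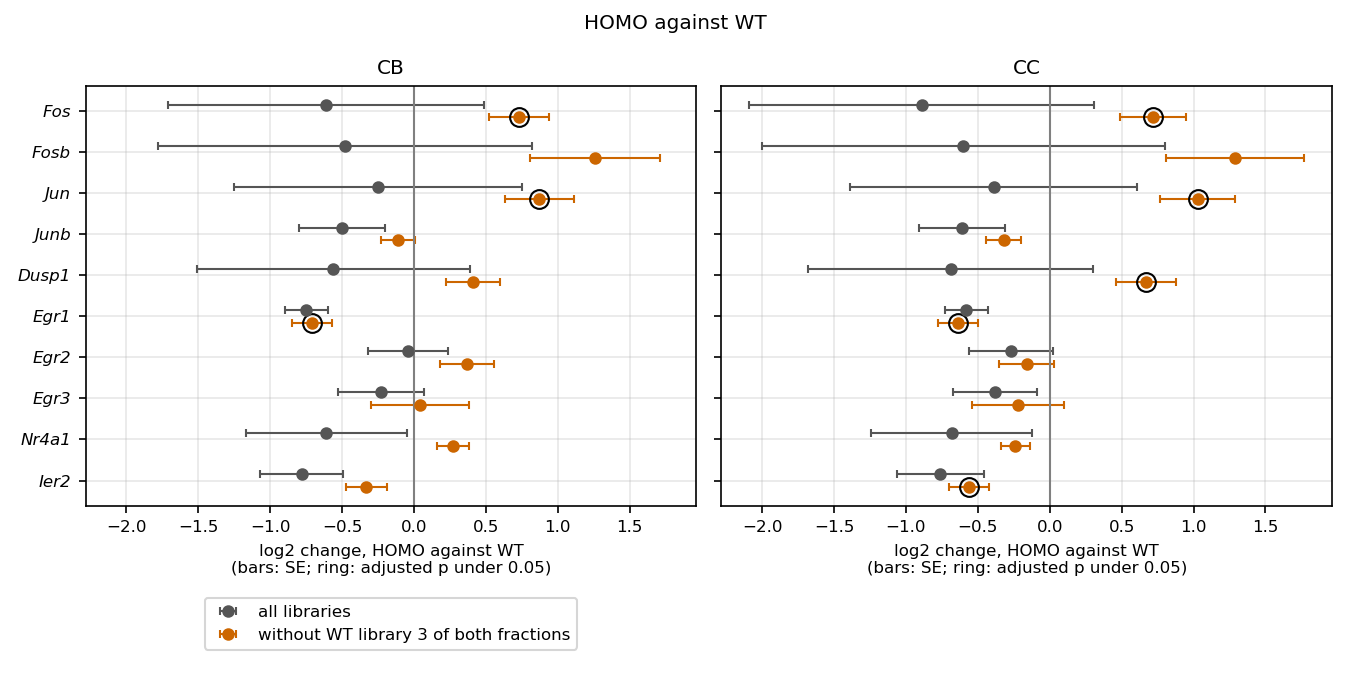
Log2 change of HOMO against WT (horizontal axis) in CB (left) and CC (right), with all libraries (grey) and without WT library 3 of both fractions (orange); bars are SEs of the edgeR fit and rings mark adjusted p under 0.05. Fos, Fosb, Jun and Dusp1 lie below 0 with all libraries and above 0 without WT library 3, while Egr1 and Ier2 stay below 0.

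Other genes were read from lists of names to see what moved with the members. Of 24 tested relatives of the EGR, AP-1 and NR4A families and other primary response genes, 4 rose and 2 fell in WT CC, and 2 rose and 1 fell in HOMO CC. The WT fractions had 11.6% of all genes higher and 12.3% lower in CC, the HOMO fractions 2.46% and 2.98%, shares that the counts of the lists are read against. The median log2 change of the relatives was 0.13 and 0.12, and their 4 and 2 of 24 in WT are near the shares over all genes. Myc, the growth regulator, had log2 changes of 1.13 in WT and 1.18 in HOMO, and Batf, an AP-1 partner, 1.14 and 1.45. Csrnp1, a nuclear factor gene, fell by 0.49 and by 0.67 on the log2 scale. Of the relatives, 9 of 24 were at least 2-fold higher in WT library 3 than in WT libraries 1 and 2 of both fractions. The share over all genes tested was 3.79%. Some of the 9 were at low levels, with Fosl1, Ier3 and Ier5l at 2.6 CPM or less in every library. Jund and Zfp36, at 89.7 CPM or more in every library, were not among the 9. Rgs1, a regulator of G protein signalling, measured 8.35, 7.9 and 55.5 CPM across WT CB, against 9.08, 3.88 and 58.9 CPM across WT CC, and Klf4 was at 0.512, 0.721 and 6.79 CPM and at 0.288, 0.207 and 8.57 CPM. Fosl1, Ier3, Ier5l, Jund, Zfp36, Rgs1 and Klf4 were singled out after their values were seen.

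Among 15 genes that limit the response, 6 rose and 1 fell in WT CC and 2 rose and 1 fell in HOMO CC. Nab2, a corepressor of EGR proteins, rose by log2 1.35 (SE 0.13) in WT and 1.18 (SE 0.16) in HOMO. The MAP kinase phosphatase gene Dusp5 fell by 0.91 and by 0.90 on the log2 scale, and Nfkbia, an inhibitor of NF-kB, rose by 1.07 in WT. No gene of this list was 2-fold higher in WT library 3 of both fractions. The 23 genes of the MAP kinase cascade and of promoter-bound factors had 2 higher and 4 lower in WT CC, among them Nras (-0.56) and Elk1 (0.56), and 0 higher and 2 lower in HOMO CC, where Nras was at -0.38. The WT counts are again near the shares over all genes. None of the 23 stood 2-fold higher in WT library 3. Of 14 light zone activation genes 10 rose in WT CC and 10 in HOMO CC, with median log2 changes of 0.98 and 0.99. They include Il4i1, an enzyme gene of activated B cells (2.29 in WT and 2.08 in HOMO), the activation marker Cd83 (1.31 and 1.45) and the NF-kB subunit gene Nfkb2 (1.29 and 1.15). In the activation list Cd69, an early activation marker, was the 1 gene at least 2-fold higher in WT library 3, at 27.3, 23.1 and 69.2 CPM in WT CB.

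Between HOMO and WT, 0 genes of these 4 lists passed by edgeR with all libraries in either fraction. At an unadjusted p under 0.05 it was 4 of 24 relatives, 4 of 15 feedback, 6 of 23 cascade and 3 of 14 activation genes in CB, against 12.5% of all genes, and 5, 5, 8 and 7 of them in CC, against 18.9%. By DESeq2 it was 0 genes in CB. In CC by DESeq2, 3 relatives, 2 feedback and 2 activation genes passed downwards, against 3.18% of all genes, and 1 cascade gene upwards, against 2.37%. Without WT number 3, edgeR called 3 relatives higher and 4 lower of 22 in CB, and 7 and 5 in CC. For the feedback genes it was 2 and 3 in CB and 0 and 4 in CC, for the cascade 8 and 4 and then 9 and 6, and for the activation genes 4 and 3 and then 4 and 5. Over all genes, 15.3% passed upwards and 15.1% downwards in CB and 16.5% and 14.8% in CC in that fit.

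A list of 17 heat shock and dissociation genes bears on cell handling, and 16 were tested. By edgeR with all libraries 0 of 16 passed in each of the 5 comparisons, as by DESeq2, and at most 1 had an unadjusted p under 0.05. Without WT number 3, 5 of 16 rose and 1 fell in HOMO CB and 11 rose in HOMO CC, against 15.3% and 16.5% of all genes passing upwards. In WT library 3 of both fractions, 7 of 16 were at least 2-fold above WT libraries 1 and 2, against 3.79% of all genes: Hspa1a, Hspa1b, Hsph1, Hspb1, Bag3, Mt1 and Ppp1r15a. Hspa1b, an inducible heat shock protein, measured 20.5, 19.6 and 365 CPM in libraries 1, 2 and 3 of WT CB, and 23.8, 26.3 and 445 CPM in those of WT CC, an 18.2-fold and a 17.7-fold excess in library 3. The HOMO libraries 2 and 3 were at 128 and 178 CPM in CB and at 111 and 201 CPM in CC, again between the WT libraries. Hsph1, a chaperone, measured 139, 125 and 532 CPM across WT CB, with 220 and 280 CPM across HOMO CB. The heat shock cognate Hspa8 measured 839, 801 and 859 CPM across WT CB, against 719, 638 and 983 CPM across WT CC. Hsph1 and Hspa8 were singled out after their values were seen.

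Genes of other cells also differed in WT library 3. Of the 7 neutrophil genes tested 6 were at least 2-fold higher there in both fractions, against 3.79% of all genes. The counts of the lists below are read against the same share. A gene at 0 in WT libraries 1 and 2 counted as higher at any level in library 3, so such a ratio has no size. Retnlg was such a gene in WT CB, at 0, 0 and 0.125 CPM. The sum of the 8 neutrophil genes was 0.945, 0.0344 and 14.3 CPM in WT CB and 0.246, 0 and 15 CPM in WT CC, with all 8 at 0 in WT CC library 2. It was 160 and 7.77 CPM in HOMO CB libraries 2 and 3 and 129 and 14.6 CPM in HOMO CC. Of 10 T cell genes 7 were 2-fold higher in WT library 3, each at 2.6 CPM or less over all libraries, and the list summed to 69.3 to 117 CPM in CB and 117 to 225 CPM in CC, of which Lck alone gave 63.4 to 224 CPM. Of 7 genes of resting follicular B cells 3 were 2-fold higher in WT library 3, as were 2 of 6 of dendritic cells (Ccr7 and Zbtb46) and 1 of 5 of plasma cells (Prdm1). No tested gene of the macrophage, stromal, germinal center, CB or CC lists was. The part of cell handling, of other cells and of the makeup of WT library 3 in these levels was not tested.

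**Figure D5:**
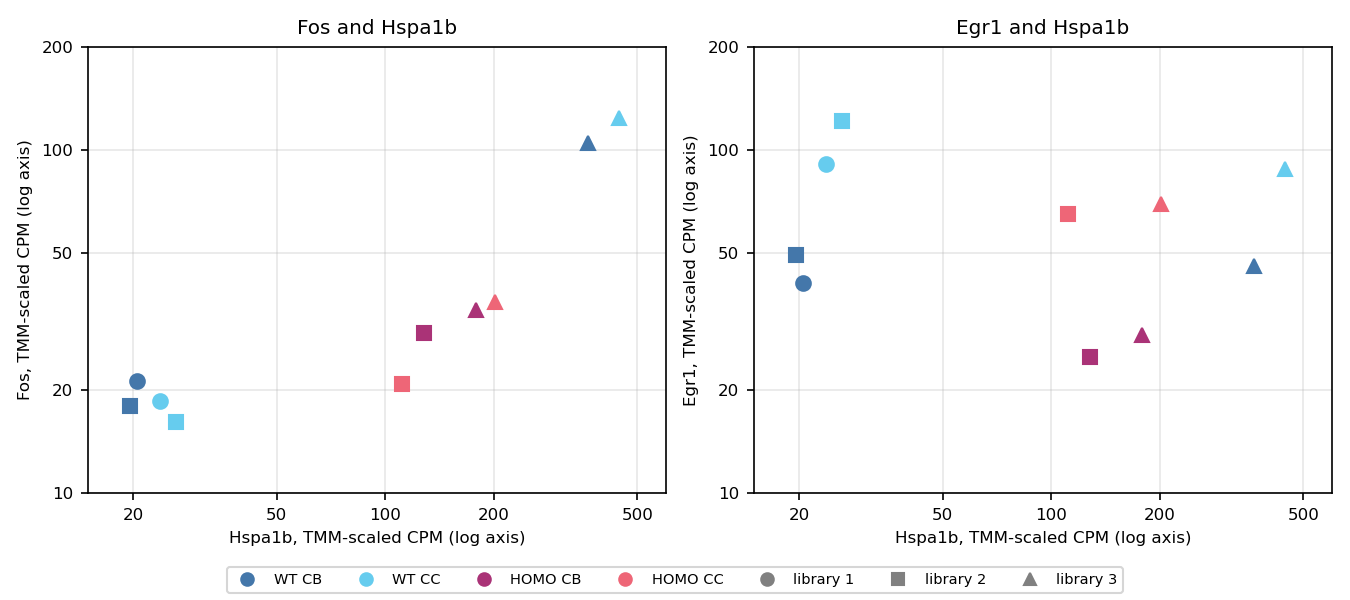
Level of Fos (left) and Egr1 (right) against the heat shock gene Hspa1b in each library, in TMM-scaled CPM on log axes; colours give the group and shapes the library number. Fos is highest in the 2 WT library 3 points with Hspa1b at 365 and 445 CPM and intermediate in HOMO, whereas Egr1 separates by fraction and genotype.

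The genes most like the members were found by Pearson's r with the mean of the members' standardised log2 CPM over the 10 libraries. The 5 highest were Rilpl2 (r = 0.956), Mpp7 (0.955), Map3k8 (0.951), Pim3 (0.950) and Snhg15 (0.947). Rilpl2 measured 6.26, 6.77 and 18.2 CPM across WT CB, against 14.9, 16.6 and 34.1 CPM across WT CC, so it was higher both in CC and in library 3. After the group means were subtracted, which leaves the differences between libraries of a group, the 5 highest were Irf4 (0.997), Hspa1b (0.995), Mxd1 (0.994), Ifrd1 (0.993) and Sik1 (0.992). Irf4, a transcription factor of activated B cells and plasma cells, measured 37.1, 37.3 and 76.3 CPM across WT CB, against 71.3, 80.1 and 143 CPM across WT CC. Sik1, a kinase induced by cyclic AMP, was 3.66-fold and 3.31-fold higher in WT library 3 than in the mean of libraries 1 and 2. These values of r describe 10 libraries that share depth and scaling. They are the highest among all eligible genes, and those within groups lean on WT library 3, where Hspa1b was 18.2-fold and 17.7-fold higher. The mean of the members also joins genes that differ within groups, as Egr1 and Fos do (r = -0.338).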

How the data were processed

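Raw read counts per gene were deposited by the authors for 10 libraries, with gene length in bases (another value of the deposited table). Per the submitters' processing notes, FastQC, STAR, featureCounts (Subread), R 4.2.1 and the mm10 build were used; per the labels' protocols, ribosomal RNA was depleted. The strand setting is not given in the sources used here. No group was pooled and no 2 libraries of the same group agreed within sampling noise.

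All genes were fitted together in edgeR 4.0.16 (R 4.3.3, limma 3.58.1) by the robust quasi-likelihood test, with 4 group means, TMM scaling and edgeR's filter on low counts (minimum count 10). It kept 16596 genes, and p-values were adjusted by Benjamini-Hochberg over all of them at 0.05. This test gives no SE, so SEs of the edgeR fits are the absolute log2 change divided by the square root of its F statistic. The code was tested on simulated data. WT numbers were taken to pair the libraries, and the block was fitted as an alternative. Same-numbered CB and CC libraries correlated in their deviations from the group means (r = 0.301, 0.426 and 0.436 over 8805 genes). Across numbers, r was 0.278 for CB 1 with CC 2 and 0.163 for CB 2 with CC 1. It was -0.244 to -0.411 where number 3 met another number. The values thus mainly set number 3 apart, and numbers 1 and 2 were less clearly paired. Other alternatives were DESeq2 1.42.0, upper-quartile scaling, no low-count filter, a GC content offset, only the groups compared, and fits without single libraries or WT numbers.

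Named were all members, up to 3 genes with the smallest p among those passing in each list and comparison, and the 5 most alike genes by each measure (mean of at least 5 CPM). Members, lists and markers were chosen with earlier results of these data known. Promoter windows came from RefSeq; gene names and GC content from GENCODE M21 annotation. Of 188 list genes 187 were in the table. Members had 128 reads or more per library, and the spread between libraries, more than counting, limits the precision. Single genes of some lists are not reported here by name.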

Additional observations from a re-analysis of the deposited data

How the results depend on the processing

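With all 10 libraries the counts of members passing were 0 between genotypes in CB and in CC, 4 for CC against CB in WT, 2 in HOMO and 0 for the interaction. Between genotypes in CB the count was 1 by DESeq2, 7 with no low-count filter and 3 without WT number 3. Between genotypes in CC it was 1, 7 and 5 under the same choices. For CC against CB in WT it was 2 without WT number 2, and with the replicate block it was 6. For CC against CB in HOMO it was 4 by DESeq2 and 6 with no low-count filter, without WT number 3 or with only the groups compared. For the interaction it was 1 without WT number 3 and 0 with the replicate block. Leaving out 1 library gave 0 to 1 between genotypes in CB and in CC (1 without library 3 of the WT fraction compared) and 1 to 4 for CC against CB in HOMO. The upper-quartile scaling moved no count by over 1.5 times. Some log2 changes turned their sign. By DESeq2 they were Jun 0.01 for CC against CB in WT and Fosb 0.01, with no adjusted p, for CC against CB in HOMO. With the GC content offset they were Egr2 0.02 for HOMO against WT in CB and Fos -0.03 and Fosb -0.05 for CC against CB in WT. With the replicate block they were Fos -0.02 for CC against CB in WT and Ier2 -0.05 and Dusp1 0.04 for the interaction. With the replicate block and the GC content offset they were Fos -0.12 and Fosb -0.08 for CC against CB in WT and Ier2 -0.04 and Dusp1 0.02 for the interaction. With upper-quartile scaling they were Jun 0.02 for CC against CB in WT and Fosb 0.04 for CC against CB in HOMO. Without WT number 1 they were Jun 0.06 and Dusp1 0.02 for CC against CB in WT and Nr4a1 0.03 for the interaction. Without WT number 2 they were Jun 0.03 for CC against CB in WT and Nr4a1 0.05 for the interaction. Without WT number 3 they were Egr2 0.37, Egr3 0.04, Fos 0.73, Fosb 1.26, Jun 0.87, Nr4a1 0.27 and Dusp1 0.41 for HOMO against WT in CB, Fos 0.72, Fosb 1.29, Jun 1.03 and Dusp1 0.67 for HOMO against WT in CC, Fos -0.17 and Fosb -0.07 for CC against CB in WT and Fosb 0.03, Jun 0.16, Ier2 -0.23 and Dusp1 0.26 for the interaction. Leaving out 1 library at a time for HOMO against WT in CB gave Egr2 from -0.26 to 0.35, Egr3 from -0.47 to 0.03, Fos from -1.0 to 0.71, Fosb from -0.92 to 1.23, Jun from -0.62 to 0.84, Nr4a1 from -0.90 to 0.24 and Dusp1 from -0.87 to 0.37. Leaving out 1 library at a time for HOMO against WT in CC gave Fos from -1.33 to 0.71, Fosb from -1.36 to 1.29, Jun from -0.81 to 1.02 and Dusp1 from -1.10 to 0.66. Leaving out 1 library at a time for CC against CB in WT gave Fos from -1.49 to 1.42, Fosb from -1.79 to 1.80, Jun from -1.42 to 1.07 and Dusp1 from -1.43 to 0.85. Leaving out 1 library at a time for CC against CB in HOMO gave Fos from -0.62 to 0.16, Fosb from -0.79 to 0.48, Jun from -0.58 to 0.17 and Dusp1 from -0.59 to 0.07. Leaving out 1 library at a time for the interaction gave Egr3 from -0.41 to 0.09, Fos from -1.60 to 1.34, Fosb from -1.83 to 1.79, Jun from -1.22 to 1.30, Junb from -0.46 to 0.17, Nr4a1 from -0.92 to 0.36, Ier2 from -0.40 to 0.21 and Dusp1 from -1.07 to 1.24. The cause was not tested. Log2 changes of Egr1, in all 5 comparisons, kept their sign under every alternative run.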
